A study of Homo sapiens with 12 samples.

Results

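The insulin-like growth factor (IGF) binding proteins are secreted proteins that carry IGF1 and IGF2, and their transcripts were followed here in C4.2B prostate cancer cells exposed to an AKT inhibitor, an EZH2 inhibitor or both. The genes were taken by name from the deposited count table: the 7 binding proteins IGFBP1 to IGFBP7 and the ligand gene IGF2, which are 8 of the 58735 gene rows by name and 9 by row because IGF2 is listed under 2 gene identifiers. IGFBP3 was the abundant member that rose: its level was 3.78-fold that of DMSO with the EZH2 inhibitor and 12.1-fold with both inhibitors, while the AKT inhibitor alone left it within the spread of the DMSO libraries. IGFBP2 held the highest level of the family in DMSO cells and IGFBP3 held it in the combination.

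Cells release binding proteins into the medium, where they hold IGFs in complexes, lengthen the life of the ligand and limit or present it to the IGF1 receptor. Bound IGFs are freed when proteases cut the binding protein, and several family members also bind the cell surface or matrix and act without an IGF. In prostate, IGFBP3 is a known substrate of the secreted kallikreins, among them prostate-specific antigen. The IGF1 receptor and its IRS adaptors signal through PI3K to AKT, so these genes lie upstream of 1 of the 2 drug targets. EZH2 is the enzyme of Polycomb repressive complex PRC2 that places the repressive mark H3K27me3 on histones.

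C4.2B is a castration-resistant human line derived from LNCaP, and every value here comes from that 1 line. There were 4 arms of 3 libraries each, named by the replicate letters A, B and C. The DMSO arm received vehicle, the AKTi arm ipatasertib at 0.25 µM, the EZH2i arm tazemetostat at 1 µM, and the combination both agents at those doses. The EZH2i and combination cells had taken tazemetostat for 6 days before plating, and all arms were collected 24 hours after dosing in medium with charcoal-stripped serum, which is poor in steroid hormones. The methods describe triplicate plates and not separate experiments, so that p-values measure the spread between plates, which may be technical. Each library held 14133755 to 22276417 counts of polyA RNA, and no protein was measured in these files. In bulk RNA, fewer cells with a transcript and less transcript per cell cannot be told apart.

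All 10 prostate luminal markers were counted in every arm, with a summed level of 3988 to 4122 CPM in DMSO, 6097 to 6287 with AKTi, 6783 to 7015 with EZH2i and 8766 to 8955 with both agents. CPM are counts as a share of the library size after TMM scaling, a method that sets the bulk of genes level between libraries. KLK3 was the largest part of the luminal sum, at a mean of 1372 CPM in DMSO, 2342 with AKTi, 2890 with EZH2i and 3941 in the combination. HOXB13 (424 CPM in DMSO and 294 in the combination) and EPCAM (127 and 103.5) were lower in the combination. The other luminal markers were higher there than in DMSO. Lists of markers for other cells were low. The 6 fibroblast markers summed to 4.94 to 7.47 CPM in DMSO, 4.70 to 6.67 with AKTi, 17.2 to 19.8 with EZH2i and 11.2 to 15.6 in the combination, most of it COL1A1, with 2 counts of COL1A2 and 3 of PDGFRA in all 12 libraries. The 3 hepatocyte markers summed to 1.28 to 1.97 CPM in DMSO, 1.05 to 1.74 with AKTi, 4.50 to 7.50 with EZH2i and 2.94 to 3.24 in the combination, and the 3 endothelial markers, of which CDH5 and PECAM1 had at most 8 counts in an arm, to 2.16 to 2.95, 3.48 to 4.34, 5.73 to 6.50 and 5.07 to 7.38 CPM in the same order. The 3 leukocyte markers summed to at most 1.35 CPM with CD3E at 0. The fibroblast, hepatocyte and endothelial sums were thus higher in the arms with tazemetostat, as IGFBP3 and IGFBP5 were. The fibroblast and hepatocyte sums were lower in the combination than in EZH2i, where IGFBP3 was higher. The endothelial sum was also higher with AKTi than in DMSO. Most of the hepatocyte sum was TTR, and most of the endothelial sum was VWF. The part of these cell types in the results on the binding proteins was not tested.

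The family lies partly in pairs in the genome (hg38 coordinates of the deposited table). IGFBP1 (ENSG00000146678, chr7:45888357-45893668, plus strand) and IGFBP3 (ENSG00000146674, chr7:45912245-45921874, minus strand) are separated by 18576 bases. IGFBP2 (ENSG00000115457, chr2:216632828-216664436, plus strand) and IGFBP5 (ENSG00000115461, chr2:216672105-216695525, minus strand) are separated by 7668 bases. IGFBP4 (ENSG00000141753, chr17:40443461-40457731), IGFBP6 (ENSG00000167779, chr12:53097436-53102345) and IGFBP7 (ENSG00000163453, chr4:57030773-57110385) stand elsewhere. IGF2 (ENSG00000167244, chr11:2129112-2149603, and ENSG00000284779, chr11:2129112-2158658, minus strand) overlaps INS-IGF2 and IGF2-AS, and its 2 rows overlap each other, so that reads in the shared part could have been left uncounted. IGFBP5 overlaps the gene AC007563.2, which had no count in any arm. IGFBP7 overlaps POLR2B, and since it is not stated whether strand was used, its few counts are uncertain.

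The windows before the transcription starts are shown because IGFBP3 and IGFBP5 rose with tazemetostat while IGFBP2, next to IGFBP5, did not. The RefSeq promoter table (GRCh38.p14) held windows for 5 of the 7 binding proteins (IGFBP2, IGFBP3, IGFBP4, IGFBP5 and IGFBP6), with 3 starts for IGFBP2, of which the window richest in CG is printed. Each line gives the 250 bases before the start, 5′ to 3′ on the strand of the gene, with every CG in capitals. The windows lie at chr7:45921273-45921522 on the minus strand for IGFBP3, chr2:216695550-216695799 on the minus strand for IGFBP5 and chr2:216633170-216633419 on the plus strand for IGFBP2. The windows of IGFBP3 and IGFBP2 lie inside the gene spans of the deposited table.
IGFBP3: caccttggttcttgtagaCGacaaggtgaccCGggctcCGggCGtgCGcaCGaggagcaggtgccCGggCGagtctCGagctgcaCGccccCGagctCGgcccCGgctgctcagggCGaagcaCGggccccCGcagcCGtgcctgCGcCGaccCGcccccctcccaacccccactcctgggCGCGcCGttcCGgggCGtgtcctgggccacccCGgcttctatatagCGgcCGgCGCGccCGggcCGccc
IGFBP5: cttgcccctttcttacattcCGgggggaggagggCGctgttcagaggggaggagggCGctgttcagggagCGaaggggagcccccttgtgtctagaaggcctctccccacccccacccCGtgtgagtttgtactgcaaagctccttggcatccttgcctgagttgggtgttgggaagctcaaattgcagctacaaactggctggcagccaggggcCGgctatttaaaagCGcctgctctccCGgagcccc
IGFBP2: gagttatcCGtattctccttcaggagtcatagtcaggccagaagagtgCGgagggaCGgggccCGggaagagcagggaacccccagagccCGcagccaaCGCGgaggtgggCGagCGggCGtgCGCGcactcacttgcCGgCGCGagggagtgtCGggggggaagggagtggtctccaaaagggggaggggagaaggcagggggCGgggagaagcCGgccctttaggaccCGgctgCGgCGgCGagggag

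The IGFBP3 window held 32 CG pairs and was 76.0% G or C. Of the 35116 windows in the table, 90.5% had fewer, the median window having 11. IGFBP5 had 8, with fewer in 43.7% of windows, and the printed IGFBP2 window had 22, with fewer in 72.0%. The IGFBP2 windows not printed had 7 and 4, with fewer in 41.1% and 29.3% of windows. The IGFBP2 window with 7, at chr2:216632578-216632827, lies directly before the deposited gene start. The genes that rose with tazemetostat therefore lay far apart in the number of CG pairs. Motifs were searched on both strands of all member windows. The FOXO motif GTAAACA, found in 2.98% of all windows, was in that of IGFBP6 only. That window, chr12:53097417-53097666, lies mostly inside the deposited gene span, which starts at 53097436, and the motif is in the part inside. The insulin response motif CAAAACA (4.3% of windows), the hypoxia motif ACGTG (18.5%) and the E-box CACGTG (6.34%), whose letters contain the hypoxia motif, were in none of them. Only these exact letters were searched, and other forms of the motifs were not counted. The letters GCGTG, which differ from the hypoxia motif searched in the first base, are in the printed windows of IGFBP3 and IGFBP2. The GC box GGGCGG (42.6%) was in windows of IGFBP2, IGFBP3, IGFBP4 and IGFBP6 and not in that of IGFBP5. Histone marks and DNA methylation at these windows were not analysed here.

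Of the 9 rows, 3 had enough counts to be tested (IGFBP2, IGFBP3 and IGFBP5), among 16646 genes tested. Over all 12 libraries IGFBP3 had 44425 counts, IGFBP2 28825, IGFBP5 159, IGFBP4 69, IGFBP6 19, IGFBP1 15, IGFBP7 8 and IGF2 1. The family in these cells was thus essentially IGFBP2 and IGFBP3. Levels of different genes were compared as TPM, in which counts are divided by the deposited gene length before they are scaled to a common total.

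**Figure D1:**
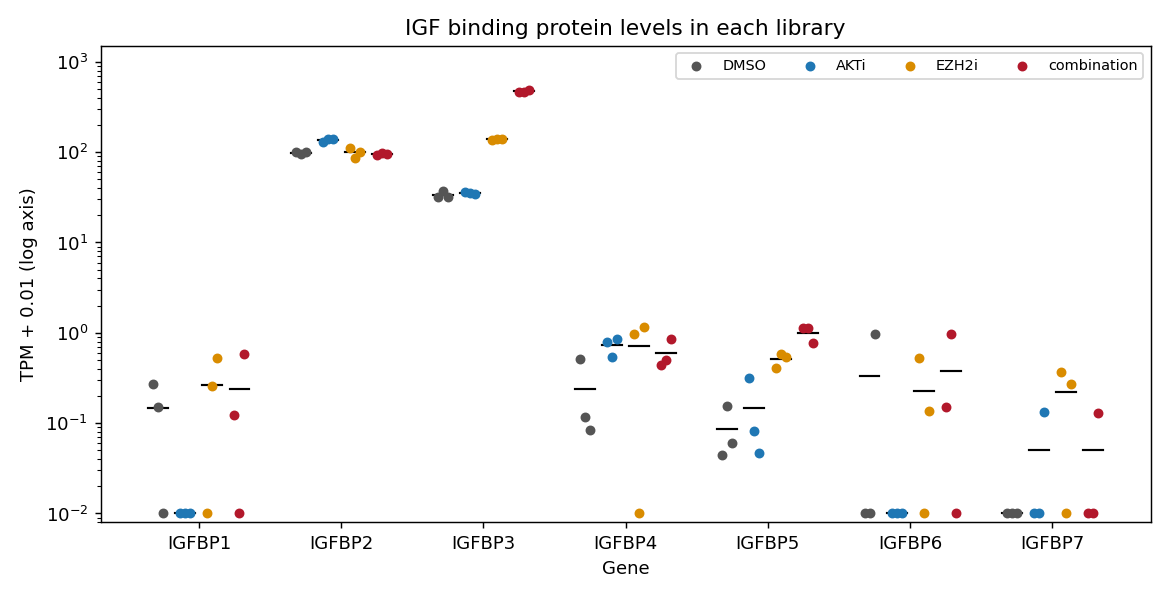
TPM of IGFBP1 to IGFBP7 in each library, plotted as TPM + 0.01 on a log axis, with 3 points per arm coloured by treatment and a black line at the arm's mean. IGFBP2 and IGFBP3 lie between 31.5 and 486 TPM, and the other binding proteins at or under 1.16 TPM; IGFBP3 is the gene whose EZH2i and combination points separate upward from DMSO at a high level.

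IGFBP3 is the main carrier of IGFs in blood, where it forms a ternary complex with the ligand and IGFALS, and it is also known to restrain growth of prostate cells. Its level was 45.4, 53.8 and 42.5 CPM in the DMSO libraries A, B and C. In AKTi it was 48.3, 48.5 and 46.9 CPM. The AKTi values lay inside the DMSO range. In EZH2i it was 180, 181 and 172 CPM, and in the combination 569, 568 and 574 CPM. Every EZH2i library exceeded every DMSO and AKTi library, and every combination library exceeded every EZH2i library. On the TPM scale the arm means were 33.8 ± 3.34 (SD, n = 3) in DMSO, 35.4 ± 0.712 with AKTi, 139 ± 1.76 with EZH2i and 472 ± 12.9 in the combination. By mean TPM in the arm, IGFBP3 ranked 4649th among the genes tested in DMSO, 4446th in AKTi, 1081st in EZH2i and 229th in the combination.

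By edgeR's quasi-likelihood test with Benjamini-Hochberg adjustment over the 16646 genes of each comparison, the log2 fold change of IGFBP3 was 1.92 ± 0.06 (SE) in EZH2i against DMSO (adjusted p = 2.51e-24). It was 3.60 ± 0.06 in the combination against DMSO (adjusted p = 5.85e-33), the 324th highest of all genes tested. In AKTi against DMSO it was 0.03 ± 0.07 (adjusted p = 0.778 by the same edgeR test). Set against the single agents, IGFBP3 was 11.9-fold higher in the combination than in AKTi (log2 fold change 3.57 ± 0.06, edgeR adjusted p = 2.15e-32) and 3.22-fold higher than in EZH2i (1.69 ± 0.06, adjusted p = 1.21e-23). The order of the arms was therefore DMSO and AKTi, which did not differ beyond their spread, then EZH2i, then the combination. These comparisons with DMSO share the same 3 control libraries.

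Adding ipatasertib did not have the same effect on IGFBP3 with and without tazemetostat. The difference between the 2 effects, tested as an interaction on the log2 scale, was 1.66 ± 0.09 (edgeR adjusted p = 5.32e-17), the 237th highest of 16646 genes. The change from the AKT inhibitor was 0.03 in cells without tazemetostat and 1.69 in cells that had it. An interaction passed the same test in 2 of the 3 tested members, IGFBP3 above 0 and IGFBP2 under it, and in 28.2% of all genes tested, 10.7% above 0 and 17.5% under it.

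**Figure D2:**
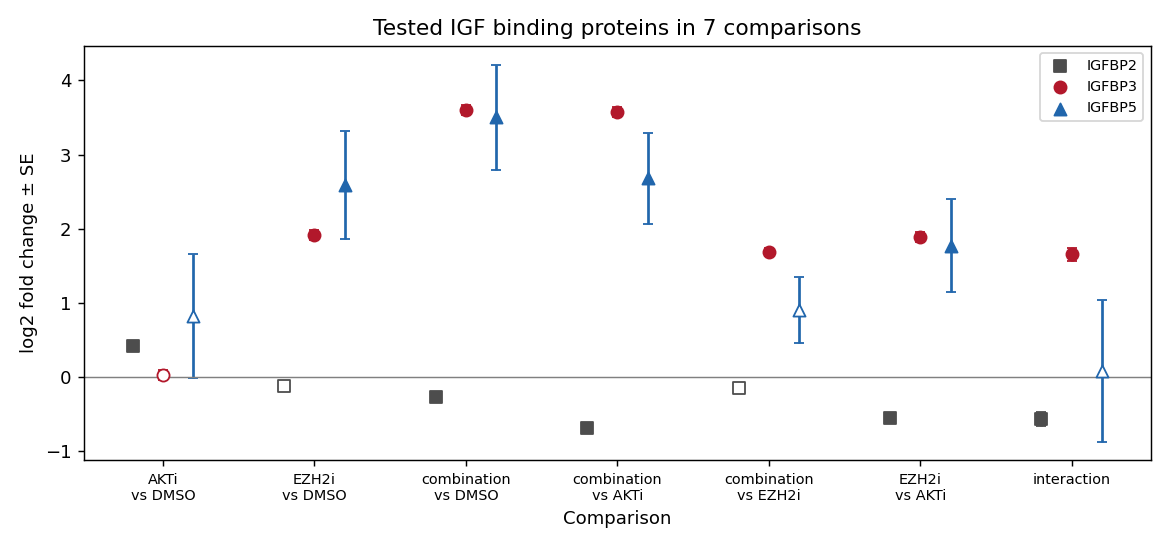
Log2 fold change ± SE of IGFBP2, IGFBP3 and IGFBP5 in 6 pairwise comparisons and the interaction, with filled symbols for an edgeR adjusted p under 0.05. IGFBP3 rises to 3.60 in the combination against DMSO with SEs of at most 0.09, IGFBP5 has SEs of 0.45 to 0.95 and lies at 0.08 in the interaction, and IGFBP2 is above 0 with AKTi only.

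IGFBP2, a binding protein without a place in the ternary complex and often raised in the serum of men with prostate cancer, had another pattern, with its highest level under the AKT inhibitor alone. It was at 148, 144 and 141 CPM in DMSO and at 182, 201 and 197 CPM in AKTi. All AKTi libraries were above all others. In EZH2i it was 151, 116 and 131 CPM, and in the combination 119, 125 and 116 CPM. The EZH2i libraries spread across the DMSO and combination ranges, with library A above every DMSO library and library B under every combination library. The rise in AKTi against DMSO was 0.42 ± 0.07 on the log2 scale (edgeR adjusted p = 1.86e-06). EZH2i against DMSO gave -0.12 ± 0.07 (edgeR adjusted p = 0.111), which became -0.22 with an adjusted p of 0.00186 when EZH2i library A was left out.

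In the combination IGFBP2 was lower than in AKTi by a log2 fold change of -0.69 ± 0.07 (edgeR adjusted p = 2.17e-11). Against DMSO it was -0.26 ± 0.07 (edgeR adjusted p = 0.000682), but this call depended on the scaling of the libraries. With library size alone the value was -0.06 (adjusted p = 0.379) and with upper-quartile scaling -0.08 (adjusted p = 0.296), while the median of all genes in that comparison moved from 0.06 to 0.26 and 0.25. In TPM, IGFBP2 was 99.0 ± 2.15 in DMSO, 137 ± 5.54 with AKTi, 99.3 ± 12.1 with EZH2i and 95.2 ± 2.99 in the combination, and the combination range of 92.7 to 98.5 overlapped the DMSO range of 96.6 to 101. Against EZH2i the combination gave -0.14 ± 0.07 (edgeR adjusted p = 0.0814), and -0.23 with an adjusted p of 0.00456 without EZH2i library B. The interaction was -0.57 ± 0.09 (edgeR adjusted p = 1.25e-05): ipatasertib raised IGFBP2 by 0.42 without tazemetostat, and the value with it was -0.14. IGFBP3 and IGFBP2 thus had interactions of opposite sign.

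IGFBP5, a binding protein that associates with bone and extracellular matrix, was rare in every arm. The DMSO libraries held 1, 4 and 2 counts and the AKTi libraries 8, 2 and 1. The EZH2i libraries held 11, 18 and 20 counts and the combination libraries 38, 33 and 21. Every EZH2i and combination library was above every DMSO and AKTi library in counts, and every combination library was above every EZH2i library, the closest being 21 counts against 20. In CPM the arm means were 0.153 ± 0.124 (SD, n = 3) in DMSO, 0.263 ± 0.276 with AKTi, 0.903 ± 0.158 with EZH2i and 1.70 ± 0.373 in the combination. The sum of its counts in EZH2i was 6.41 times that in DMSO after scaling, with an exact 95% interval of 2.89 to 16.8, and that in the combination 12.1 times, with an interval of 5.63 to 30.9. These intervals cover counting error only.

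The edgeR quasi-likelihood test gave IGFBP5 a log2 fold change of 2.60 ± 0.73 in EZH2i against DMSO (adjusted p = 0.000566) and 3.50 ± 0.71 in the combination (adjusted p = 2.68e-06). In the combination against AKTi it was 2.68 ± 0.61 (edgeR adjusted p = 6.82e-05). AKTi against DMSO gave 0.82 ± 0.84 (edgeR adjusted p = 0.441) and rested on library A, without which it was -0.45. The combination against EZH2i gave 0.91 ± 0.45 (edgeR adjusted p = 0.0921), so that at this depth EZH2i could not be told apart from the combination, nor DMSO from AKTi. The interaction was 0.08 ± 0.95 (edgeR adjusted p = 0.977). IGFBP5 entered the test through its counts in the tazemetostat arms, which made a difference likely, and it ranked 16398th of 16646 by mean TPM in DMSO and 15416th in the combination.

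Against DMSO, 1 of the 3 tested binding proteins was called at an adjusted p under 0.05 in AKTi, where 42.5% of all genes were. That gene, IGFBP2, was higher, as 20.6% of all genes were, with 21.9% lower. In EZH2i 2 of 3 were called (64.1% of all genes), both higher (32.6% of all genes, with 31.5% lower). In the combination 3 of 3 were called (73.2%), 2 higher (38% of all genes were called higher) and 1 lower (35.2%). The combination differed from AKTi in 3 of 3 (64.2% of all genes), 2 higher and 1 lower (32.1% and 32.1%). It differed from EZH2i in 1 of 3 (46.7%), which was higher (21.1% of all genes, with 25.7% lower). EZH2i differed from AKTi in 3 of 3 (50.4%), 2 higher and 1 lower (25.4% and 25.1%). In each comparison where 2 were called higher, 1 of them was IGFBP5. It entered the test through its counts in the tazemetostat arms, so that its calls are descriptions. With 3 genes, these counts do not set the family apart from the rest of the transcriptome. Directly compared, EZH2i and AKTi cells differed in IGFBP3 by 1.89 ± 0.06, in IGFBP2 by -0.55 ± 0.07 and in IGFBP5 by 1.77 ± 0.63 on the log2 scale (edgeR adjusted p of 1.43e-23, 9.25e-09 and 0.0118). The IGFBP5 call was lost without AKTi library B (1.46, adjusted p = 0.0654) or C (1.33, adjusted p = 0.08), and the value was 3.002 without library A.

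Counts of the remaining members were near the detection limit. IGFBP4, the substrate of the pregnancy-associated protease PAPPA, had 5, 1 and 1 counts in DMSO, 7, 5 and 8 with AKTi, 9, 0 and 15 with EZH2i and 5, 5 and 8 in the combination. Its summed counts were 3.31 times the DMSO value in AKTi (exact 95% interval 1.35 to 9.27) and 3.14 times in EZH2i (1.31 to 8.63). In the combination they were 2.36 times that value, with an interval of 0.94 to 6.69 that includes no change. All of these intervals hold counting error only. The EZH2i libraries spread from 0 to 15 counts, and when genes with at least 1 count were tested, the edgeR adjusted p of IGFBP4 was 0.205 in AKTi and 0.176 in EZH2i. IGFBP6, which prefers IGF2 over IGF1, had 8 counts in DMSO, all of them in library C, none in AKTi, 4 with EZH2i and 7 in the combination. IGFBP1, the insulin-repressed binding protein of liver, had 3, 0, 7 and 5 counts in those arms, and IGFBP7, a low-affinity relative, had 0, 1, 6 and 1. A count of 0 over an arm allows up to 0.0609 CPM in DMSO and 0.0706 CPM in AKTi, taking 3 counts as the limit. The IGF2 rows held 1 count, in EZH2i library A, and because they overlap, reads in the shared part could have been left uncounted. The level of IGF2 is therefore not known from these counts. None of IGFBP1, IGFBP4, IGFBP6, IGFBP7 and IGF2 passed the edgeR test in any comparison under that wider filter of 34381 genes, and the unadjusted edgeR p was under 0.05 for IGFBP6 alone, in AKTi against DMSO, the combination against AKTi and the interaction (edgeR adjusted p = 0.154, 0.122 and 0.233).

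**Figure D3:**
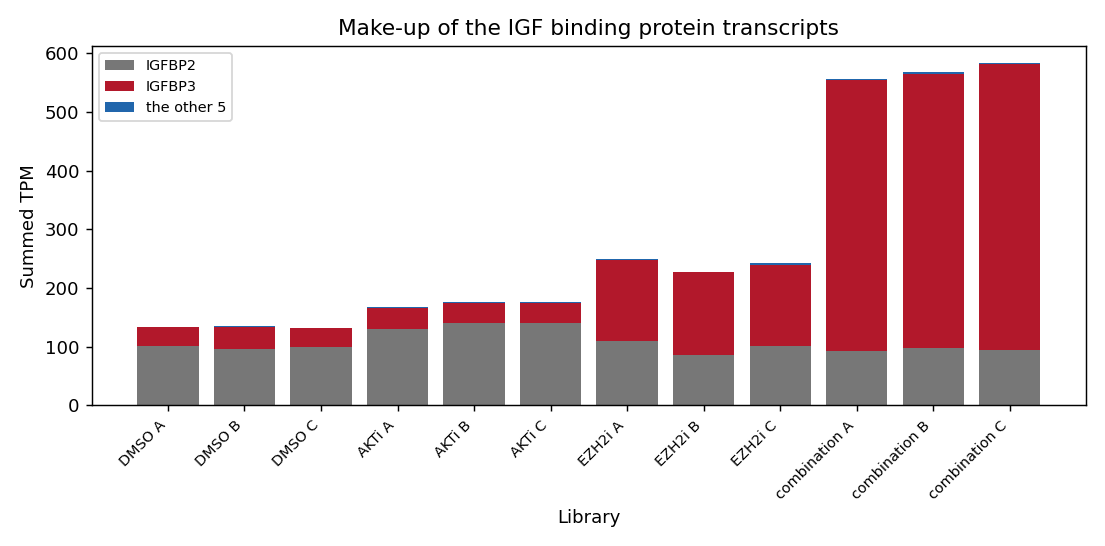
Summed TPM of the 7 binding proteins in each library as stacked bars, with IGFBP2 in grey, IGFBP3 in red and the other 5 in blue. The sum is 132 to 135 TPM in DMSO, 168 to 176 with AKTi, 228 to 250 with EZH2i and 557 to 583 in the combination, and the growth in the tazemetostat arms is the red part.

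The make-up of the binding protein transcripts differed between the arms. Summed over the 7 genes, the level was 134 ± 1.11 TPM (SD, n = 3) in DMSO, 173 ± 4.71 with AKTi, 240 ± 11.2 with EZH2i and 569 ± 13.3 in the combination, with no overlap between arms. IGFBP2 made up 74.2 ± 2.07% of this sum in DMSO, 79.0 ± 1.06% with AKTi, 41.3 ± 3.18% with EZH2i and 16.7 ± 0.585% in the combination. IGFBP3 made up 25.3 ± 2.32%, 20.5 ± 0.966%, 57.9 ± 3.47% and 82.9 ± 0.63%. The ratio of IGFBP3 to IGFBP2 in TPM was 0.342 ± 0.0414 in DMSO, 0.259 ± 0.0158 with AKTi, 1.41 ± 0.196 with EZH2i and 4.96 ± 0.21 in the combination. IGFBP3 was under IGFBP2 in every DMSO and AKTi library and above it in every EZH2i and combination library. This ratio within a library does not depend on how libraries are scaled. These shares are a description and were not tested.

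Genes with the pattern most like each tested member were found by Pearson's r of log2 CPM over the 12 libraries among 11365 protein-coding genes, and because all of them share the same libraries and arms r is given without a p. For IGFBP3 they were COL16A1 (r = 0.994), a collagen gene, TLE1 (0.990), a transcriptional corepressor, and TRAF3IP2 (0.990), an adaptor of interleukin-17 signalling. Their log2 fold changes in the combination against DMSO were 3.21, 1.95 and 1.21, so that none reached that of IGFBP3. For IGFBP2 they were DNPH1 (0.987), HOOK2 (0.979) and SLC25A6 (0.976), and for IGFBP5 SYNE1 (0.972), WWC2 (0.970) and HHAT (0.961).

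The genes next to the 2 pairs were chosen for display after values had been seen. The nearest tested protein-coding gene to IGFBP1 and IGFBP3 was ADCY1 at 165 kb, with log2 fold changes of 0.36, 0.30 and 0.18 in AKTi, EZH2i and the combination against DMSO (edgeR adjusted p = 0.0194, 0.0327 and 0.194). On the other side the nearest was HUS1 at 2041 kb, with -0.18, -0.17 and -0.15, none of which passed the test. Beside IGFBP2 and IGFBP5, RPL37A at 53.65 kb had -0.16, -0.15 and -0.40 (edgeR adjusted p = 0.0653, 0.0631 and 3.76e-06). On the other side of that pair, TNS1 at 1104 kb had -0.47, 0.49 and 0.01 (edgeR adjusted p = 0.435, 0.301 and 0.984). None of these neighbours moved by the size seen for IGFBP3 or IGFBP5.

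The rest of the IGF system was read from a list of 43 genes, of which 29 had enough counts to be tested. In the combination against DMSO 27 of 29 were called (93.1%, against 73.2% of all genes), 21 higher and 6 lower, with a median log2 fold change of 1.35 against 0.06 over all genes tested. In EZH2i 22 were called (75.9%, against 64.1%), 20 of them higher, with a median of 0.81 against 0.03. In AKTi 16 were called (55.2%, against 42.5%), 13 of them higher, with a median of 0.18 against 0.01. Scaling by library size or upper quartile changed the combination split to 22 higher and 5 lower. Of the 21 genes called higher, 5 (IRS4, IGFALS, ADAM12, CCN3 and IGF2BP2) had few counts in DMSO and AKTi and entered the test through the tazemetostat arms, which made a difference likely, so that the share, the split and the median rest partly on them and the calls of these 5 are descriptions. Among genes with at least 10 counts in every library, a filter that drops them and STC1, 20 of 23 were called in the combination, 16 higher and 4 lower.

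Few reads of ligand genes were counted, and for IGF2 the overlap of its rows may have left reads uncounted. IGF1 was the only ligand gene tested, at 6.33, 4.94 and 6.28 CPM in DMSO, 6.51, 5.67 and 7.72 with AKTi, 1.61, 2.57 and 1.65 with EZH2i and 3.24, 1.79 and 2.36 in the combination. The EZH2i and combination libraries all lay under the DMSO libraries, with log2 fold changes of -1.60 ± 0.24 and -1.24 ± 0.23 (edgeR adjusted p = 2.89e-07 and 9.42e-06). INS had no count in any library. IGF1 therefore fell in the arms where IGFBP3 rose.

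All 3 tested receptors were called higher in the combination, as were 38% of all genes. The IGF1 receptor gene IGF1R was at 33.1, 35.3 and 30.3 CPM in DMSO, 66.0, 75.5 and 70.8 with AKTi, 75.3, 85.4 and 79.2 with EZH2i and 131, 124 and 130 in the combination. The DMSO libraries were lowest and the combination libraries highest, and those of the single agents overlapped. Its log2 fold changes were 1.11 ± 0.07, 1.29 ± 0.07 and 1.97 ± 0.07 (edgeR adjusted p = 4.02e-15, 5.55e-18 and 3.2e-24). The insulin receptor gene INSR rose in AKTi (0.54) and the combination (0.95, edgeR adjusted p = 8.08e-14), with 0.15 and an adjusted p of 0.0848 in EZH2i. IGF2R, the mannose-6-phosphate receptor that clears IGF2, rose by 0.44, 0.58 and 0.53 (edgeR adjusted p of 2.25e-08, 8.41e-12 and 4.55e-11), and INSRR had at most 3 counts in a library.

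The IRS adaptors, which link these receptors to PI3K, were called higher in the combination, against 38% of all genes, with IRS4 resting on few counts. IRS2 was at 1.41, 1.84 and 1.92 CPM in DMSO, 10.2, 14.01 and 13.2 with AKTi, 4.75, 4.03 and 5.37 with EZH2i and 43.5, 45.4 and 43.0 in the combination. The 4 arms did not overlap. Its log2 fold changes were 2.84 ± 0.19, 1.44 ± 0.20 and 4.65 ± 0.18 (edgeR adjusted p = 3.64e-16, 2.5e-08 and 2.03e-25), and IRS2 was lower in EZH2i than in AKTi (-1.39 ± 0.14, adjusted p = 1.42e-10), where IGFBP3 was higher. IRS1 gave 0.87, 0.30 and 1.72 (edgeR adjusted p = 1.63e-19 in the combination), and IRS4, with 0 to 8 counts per DMSO library and 22 to 47 per combination library, 2.86 ± 0.63 in the combination. Of 5 other adaptors, GAB1 (2.98, edgeR adjusted p = 4.14e-19) and GRB10 (1.38, adjusted p = 5.63e-23), an adaptor that restrains these receptors, were higher in the combination, 2 were lower and 1 was not called.

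**Figure D4:**
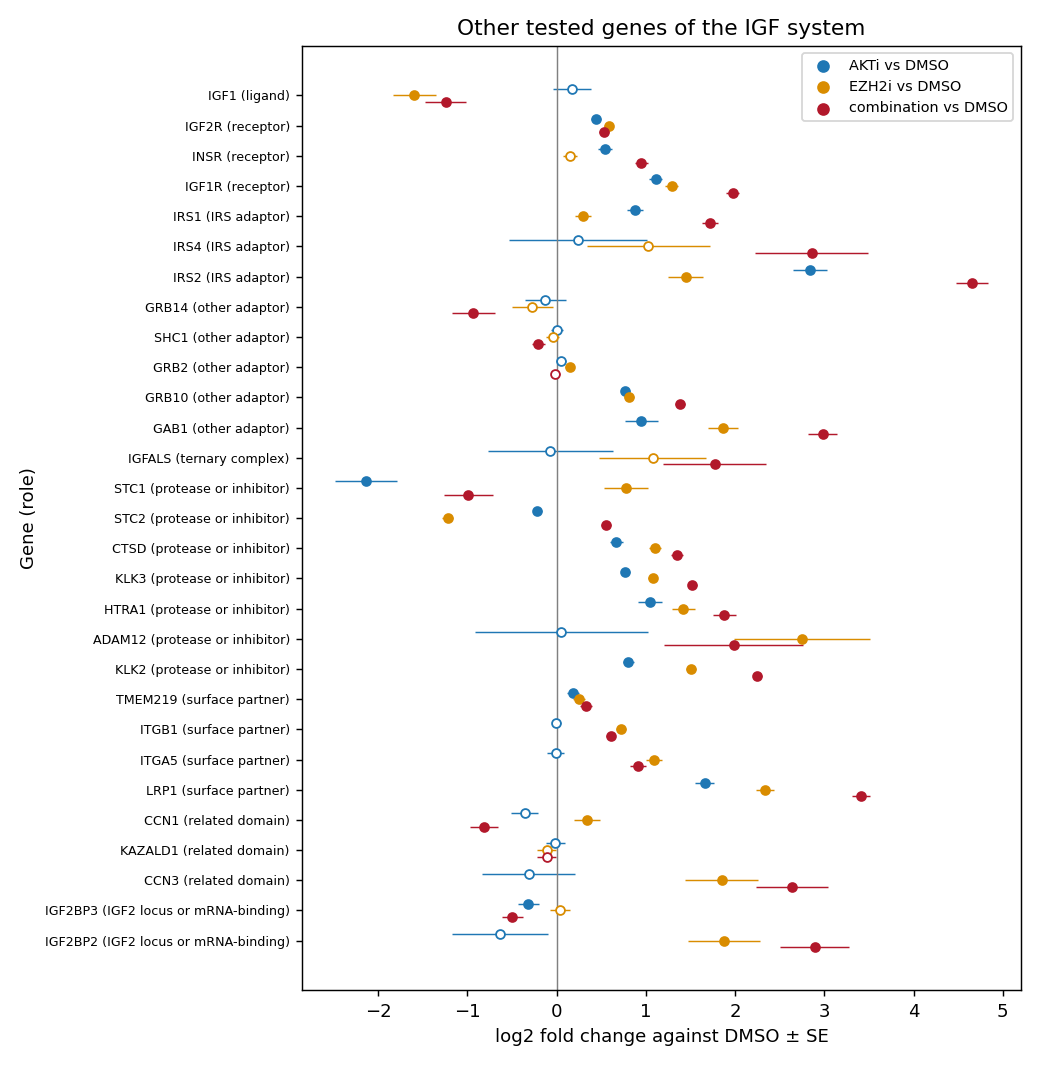
Log2 fold change against DMSO ± SE of the 29 tested genes of the IGF system, grouped by role, with AKTi in blue, EZH2i in orange and the combination in red, and filled points for an edgeR adjusted p under 0.05. IRS2 lies farthest right at 4.65 in the combination, the receptors lie right of 0 in all arms, and IGF1 lies left of 0 in the 2 tazemetostat arms.

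The 5 tested proteases known to cut binding proteins, KLK2, KLK3, HTRA1, CTSD and ADAM12, were called higher in the combination, against 38% of all genes. Of the 2 tested inhibitors of PAPPA, STC2 was higher and STC1 lower. Among the proteases KLK2 and KLK3 are also luminal markers, whose sum moved with the arms as given above, and KLK3 was the largest part of that sum. KLK2, a prostate kallikrein, was at 96.7, 105 and 106 CPM in DMSO, 178, 185 and 176 with AKTi, 282, 304 and 293 with EZH2i and 491, 513 and 465 in the combination, with no overlap. The fold over DMSO was 4.76 in the combination (log2 2.25 ± 0.06, edgeR adjusted p = 8.76e-29). KLK3, which encodes prostate-specific antigen, rose by 1.52 ± 0.05, the serine protease gene HTRA1 by 1.88 ± 0.13 and the lysosomal protease gene CTSD by 1.35 ± 0.07 (edgeR adjusted p = 4.05e-25, 3.89e-16 and 2.13e-19). ADAM12 gave 2.75 ± 0.76 with EZH2i and 1.99 ± 0.78 in the combination from 0 to 6 counts per DMSO library, and the combination call was lost without DMSO library B (1.49). It entered the test through the tazemetostat arms, so that its calls are descriptions. PAPPA, with at most 13 counts in a library, and PAPPA2, with at most 7, were not tested.

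STC2, a secreted inhibitor of PAPPA, was chosen after its values were seen because its pattern crossed over. It was at 164, 176 and 179 CPM in DMSO, 143, 149 and 154 with AKTi, 71.7, 71.6 and 78.6 with EZH2i and 255, 256 and 249 in the combination. EZH2i was lowest and the combination highest, and the 4 arms did not overlap. The log2 fold changes against DMSO were -0.21 ± 0.06, -1.22 ± 0.06 and 0.55 ± 0.05 (edgeR adjusted p = 0.00185, 5.67e-20 and 2.49e-11). Its interaction of 1.99 ± 0.08 (edgeR adjusted p = 9.18e-21) was in the same direction as that of IGFBP3. STC1, its paralog and also an inhibitor of PAPPA, was likewise chosen after its values were seen. It was at 4.11, 2.95 and 4.41 CPM in DMSO, 1.09, 0.631 and 0.904 with AKTi, 6.63, 7.19 and 6.06 with EZH2i and 2.23, 0.865 and 2.72 in the combination. AKTi and the combination overlapped, and both lay below DMSO. Its log2 fold changes against DMSO were -2.14 ± 0.35, 0.78 ± 0.24 and -0.99 ± 0.28 (edgeR adjusted p = 1.12e-06, 0.00558 and 0.00154), the EZH2i call was lost without DMSO library B (0.58), and its interaction of 0.37 ± 0.44 did not pass the test (edgeR adjusted p = 0.57).

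All 4 tested surface partners of binding proteins were called higher in the combination, against 38% of all genes. LRP1, an endocytic receptor that binds IGFBP3, was at 6.53, 7.52 and 7.34 CPM in DMSO, 24.2, 20.9 and 22.7 with AKTi, 38.8, 32.8 and 36.4 with EZH2i and 75.1, 76.1 and 76.9 in the combination. The arms did not overlap, and the fold over DMSO in the combination was 10.6 (log2 3.41 ± 0.10, edgeR adjusted p = 1.37e-27). IGFALS, the partner of IGFBP3 in the ternary complex, had 3 to 8 counts per DMSO library and 12 to 29 per combination library (log2 fold change 1.77 ± 0.58). CCN3, a matrix protein with a domain related to the binding proteins, had 6 to 9 counts per DMSO library and 41 to 75 per combination library (log2 fold change 2.64 ± 0.40). The mRNA-binding protein gene IGF2BP2 had 4 to 16 and 67 to 72 counts in the same arms (log2 fold change 2.89 ± 0.39). All of IGFALS, CCN3 and IGF2BP2 entered the test through the tazemetostat arms. More abundant genes of the same roles, outside the rule for named genes, were added after their values were seen. IGF2BP3, at a mean of 19.1 CPM in DMSO, was lower in the combination (-0.50 ± 0.12, edgeR adjusted p = 0.000274). CCN1, at 8.35 CPM, was also lower (-0.82 ± 0.16, edgeR adjusted p = 1.62e-05). KAZALD1 was not called (-0.11 ± 0.11, edgeR adjusted p = 0.351).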

How the data were processed

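PolyA RNA of C4.2B cells was sequenced in 4 arms of 3 libraries, grouped by the treatment in the sample labels. Per the study's methods and the submitters' processing notes, the authors aligned reads to hg38 with STAR, counted reads per gene with HTSeq and normalised with DESeq2; versions, annotation release and strand setting are not given in the sources used here, so that a gene and an antisense partner may share reads. The deposited raw counts per gene were used for all tests. The deposited normalised counts, a signal on the scale of counts divided by size factors, and the deposited gene lengths were used to check the table and to compute TPM. No column of another series' samples was present (0 unused).

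Genes were kept by edgeR's filterByExpr (minimum count 10, minimum total 15), which left 16646 of 58735. Libraries were scaled by TMM, and 1 mean per arm was fitted over all 12 libraries with edgeR 4.0.16 (limma 3.58.1, R 4.3.3), using the quasi-likelihood test with Benjamini-Hochberg adjustment over all genes of a comparison and a threshold of 0.05. The interaction contrast takes the log2 change from AKTi in cells with EZH2i and subtracts the change from AKTi in cells without it. Depth was 14133755 to 22276417 counts per library, and 3 counts were taken as the detection limit. Intervals are exact at 95% and cover counting error. Replicates differed by more than counting noise (chi-square per gene 2.57 to 7.77), and none was merged. The fits were tested on simulated data.

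The members and lists were chosen with earlier results of these data known. Named were all members, receptors and IRS adaptors, other listed genes with an adjusted p under 0.05 and an absolute log2 fold change of at least 1 in the combination against DMSO, and the 3 genes most like each tested member. Alternatives were library-size and upper-quartile scaling, 2 other count filters, DESeq2 1.42.0, a replicate block, fits of the 6 libraries compared and leaving out each library. Promoter windows came from RefSeq and were read with Python 3.11.15.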

Additional observations from a re-analysis of the deposited data

Results flagged for a closer look

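The interaction tests the difference between the effect of ipatasertib with and without tazemetostat. It passed an edgeR adjusted p under 0.05 for 2 of the 3 tested binding proteins and for 10 other genes of the IGF system. These 10 are listed in the next paragraph. Of the 29 tested genes of the IGF system outside the members, 12 passed (41.4%), against 28.2% of all genes tested. The remaining 2 were CCN1 (-0.80, edgeR adjusted p = 0.00482) and GRB2 (-0.21, adjusted p = 0.0328), which lie outside the rule for named genes and were added after their values were seen. When 1 library was left out, 9 to 12 genes of the IGF system passed. The share rests partly on the unstable calls given below and on IGF2BP2, which entered the test through the tazemetostat arms. A positive value means that the log2 change from ipatasertib was higher in cells that had tazemetostat.

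Among the binding proteins the value was 1.66 for IGFBP3 (adjusted p = 5.32e-17) and -0.57 for IGFBP2 (adjusted p = 1.25e-05), both by edgeR's quasi-likelihood test. Positive values were also found for STC2 (1.99, edgeR adjusted p = 9.18e-21), IGF2BP2 (1.65, adjusted p = 0.0353, with 4 to 16 counts per DMSO and AKTi library) and IRS1 (0.55, adjusted p = 0.000849). Negative values were found for the receptors IGF1R (-0.43, edgeR adjusted p = 0.000796) and IGF2R (-0.49, adjusted p = 4.48e-06) and for the surface partner LRP1 (-0.58, adjusted p = 0.000734). Of the proteases, HTRA1 (-0.58, edgeR adjusted p = 0.00974), CTSD (-0.43, adjusted p = 0.000748) and KLK3 (-0.32, adjusted p = 0.000475) had negative values, as did the adaptor GRB10 (-0.20, adjusted p = 0.0423). For all of these negative values except IGFBP2 the gene was called higher than DMSO with each agent and with both, and the negative sign says that the combination was under the sum of the single changes.

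The calls of GRB10, GRB2, IGF2BP2 and HTRA1 were not stable. GRB2 was lost in 10 of 18 alternatives (-0.24 to -0.17), GRB10 in 12 of 18 (-0.25 to -0.15), IGF2BP2 in 7 of 17 (1.10 to 1.92) and HTRA1 in 1 of 18, without DMSO library B.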

How the results depend on the processing

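The IGFBP3 values in EZH2i, the combination and the interaction kept their direction and call under every alternative run. Changes of sign were confined to values that did not pass the test. IGFBP3 in AKTi against DMSO was -0.047 without DMSO C and -0.0031 without AKTi B, and up to 0.102 without DMSO B. IGFBP5 in AKTi against DMSO was -0.45 without AKTi A. IGFBP2 in EZH2i against DMSO was 0.024 with library size only. The IGFBP5 interaction ranged from -0.61 to 1.36 when 1 library was left out and was negative without DMSO B (-0.61), AKTi B (-0.18), AKTi C (-0.36), EZH2i A (-0.03), combination A (-0.02) or combination B (-8e-04). The cause of these reversals was not tested.

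Counts of called binding proteins moved by over 1.5 times in 2 comparisons. In EZH2i against DMSO it was 1 instead of 2 when 10 counts were asked in every library, a filter that IGFBP5 does not pass. In the combination against EZH2i it was 2 instead of 1 in a fit of those 6 libraries alone, where IGFBP5 passed (0.92, edgeR adjusted p = 0.0497). In that comparison it was 1 to 2 when 1 library was left out. The added call was then IGFBP2, lower in the combination without EZH2i library B (-0.23, edgeR adjusted p = 0.00456), and IGFBP5 did not pass. Shares computed from counts not divided by length were 17.34% for IGFBP2 in the combination (16.7% by TPM), and 0.292% and 0.245% for IGFBP5 in EZH2i and the combination (0.21% and 0.175%). Smaller moves of these counts were from 3 to 2 in the combination against DMSO with library-size and with upper-quartile scaling, from 3 to 2 in the combination against DMSO, the combination against AKTi and EZH2i against AKTi when 10 counts were asked in every library, and, when 1 library was left out, 2 to 3 in EZH2i against DMSO and in EZH2i against AKTi. DESeq2 changed no call of the binding proteins.

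The replicate letters did not pair the libraries: over 18 pairs with the same letter the correlation of deviations from the arm means was -0.0583 to 0.0688, and 4 of 12 libraries correlated best with their own letter. A fit with the letter as a replicate block changed none of the 21 values of single binding proteins and none of the 14 counts of calls by over 1.5 times. Depth limits IGFBP5 and the 5 untested members, and for IGF2 the overlap of its rows is a further limit.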
